A study of Mus musculus with 4 samples.

Results

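The replication-dependent histone genes of the mouse were examined in prefrontal cortex (PFC) RNA-seq after knockdown of Ash1L, a histone lysine methyltransferase. All symbols of the count tables that begin with Hist1h, Hist2h, Hist3h or Hist4h were taken, which gave 68 of 23420 symbols. They comprised 6 genes of the H1 family, 18 of H2A, 19 of H2B, 12 of H3 and 13 of H4. In the GRCm38 (mm10) annotation 54 of them lay in the Hist1 cluster on chromosome 13, 10 in the Hist2 cluster on chromosome 3, 3 in the Hist3 cluster on chromosome 11 and 1, Hist4h4, on chromosome 6.

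The mice were wild-type C57BL/6J of both sexes, injected bilaterally in the medial PFC at 5 weeks of age and labelled as 6 to 8 weeks old. The arms compared were control (n = 2 samples) and Ash1L shRNA (n = 2 samples), each delivered by a GFP-tagged adeno-associated virus (AAV). The control virus is a GFP AAV9 in the labels and a scrambled shRNA AAV in the study's methods, and the Ash1L shRNA was driven by the U6 promoter, which is not restricted to a cell type. Per the methods, fluorescent tissue punches of 3 mice were pooled for each sample, so that uninfected cells and all cell types of the punch contributed RNA. The series description instead names 3 Ash1L shRNA mice and 2 control mice. Total counts were 14251190 and 35764874 in control samples 1 and 2, and 27479339 and 20106708 in Ash1L shRNA samples 1 and 2. Ash1l itself, the targeted gene, had normalized counts per 1000000 counts (CPM) of 245 and 290 in control and of 216 and 138 in the Ash1L shRNA samples. Its log2 fold change was -0.60 ± 0.22 (SE), with an unadjusted p of 0.0362 and an adjusted p of 0.275 (edgeR quasi-likelihood test, n = 2 per group). The same-group samples differed by more than sampling noise, and p-values measure the spread between such pools.

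Canonical histones H2A, H2B, H3 and H4 form the nucleosome core, and H1 binds the linker DNA. Their genes lie in clusters, mostly lack introns, and are transcribed in S phase to package new DNA. Their mRNAs typically end in a conserved stem-loop in place of a poly(A) tail. The stem-loop is bound by SLBP, and U7 snRNP and the cleavage factor CPSF3 cut the precursor just after it. Some of these genes also give polyadenylated transcripts in cells that no longer divide. Because the libraries were made from rRNA-depleted total RNA, mRNAs with and without a tail can both be seen. Most cells of the adult PFC do not divide, and the main dividing cells of the grey matter are oligodendrocyte precursors.

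The histone stem-loop was searched within 120 bases after the stop codon in the GENCODE vM21 transcripts. It was found in 46 of the 68 genes, in 8 spellings. The lines below show it for genes described further on and for Hist2h4, as an example of another spelling. They read 5′ to 3′, with the 16 bases of the stem-loop in capitals and 5 bases of each flank in lower case.
Hist1h1c: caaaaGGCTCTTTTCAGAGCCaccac
Hist1h2be: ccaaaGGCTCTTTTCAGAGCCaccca
Hist1h3b: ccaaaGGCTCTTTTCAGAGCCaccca
Hist1h2bb: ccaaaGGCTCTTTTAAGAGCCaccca
Hist1h4c: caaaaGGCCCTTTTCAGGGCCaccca
Hist1h4n: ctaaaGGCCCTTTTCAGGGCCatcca
Hist2h4: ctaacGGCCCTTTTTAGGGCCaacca
The spelling of Hist1h1c, Hist1h2be and Hist1h3b was shared by 26 genes of the H1, H2A, H2B and H3 families. That of Hist1h4c and Hist1h4n was found in 7 genes, all of the H4 family, that of Hist1h2bb in 6 genes, and that of Hist2h4 in 2. Of the other 22 genes, 15 had no annotated sequence past 20 bases after the stop codon, 1 is a pseudogene (Hist3h2bb-ps), and 6 had no match in the annotated sequence. The last 6 include Hist1h2bc, whose annotated exons form 2 separate blocks. Among the genes with a stem-loop, the annotated transcript ended within 60 bases after it in 22 and ran further in 24.

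Promoters were available from RefSeq (GRCm38.p6) for 62 of the 68 genes, as windows from 250 bases before to 50 after the start. Only the 250 bases before the start were searched for motifs, in the members and in all promoters. TATAAA, read on the gene's strand, was present in 24 of the 62 (38.7%) against 7.59% of all 32851 promoters. CCAAT, on either strand, was present in 51 (82.3%) against 33.8%. The octamer ATTTGCAT, on either strand, was present in 14 (22.6%) against 1.6%, namely in 7 of 18 H2A and 7 of 16 H2B promoters and in none of the H1, H3 or H4 promoters. These windows can overlap, since 13 pairs of members start from opposite strands within 500 bases of each other. The Hist1h2ac window covers most of the 251 bases to the oppositely oriented Hist1h2bc and reaches into the annotated Hist1h2bc exon. The 250 bases before the start are shown for Hist1h2ac (chr13:23683960-23684209, minus strand), Hist1h2bb (chr13:23746484-23746733, plus strand) and Hist1h4n (chr13:21832198-21832447, minus strand). These motifs are in capitals.
Hist1h2ac: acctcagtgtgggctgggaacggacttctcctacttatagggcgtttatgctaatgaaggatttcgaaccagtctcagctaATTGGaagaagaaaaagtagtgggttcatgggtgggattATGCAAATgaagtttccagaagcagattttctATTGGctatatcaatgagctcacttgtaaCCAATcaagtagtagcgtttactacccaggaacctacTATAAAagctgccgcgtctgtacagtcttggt
Hist1h2bb: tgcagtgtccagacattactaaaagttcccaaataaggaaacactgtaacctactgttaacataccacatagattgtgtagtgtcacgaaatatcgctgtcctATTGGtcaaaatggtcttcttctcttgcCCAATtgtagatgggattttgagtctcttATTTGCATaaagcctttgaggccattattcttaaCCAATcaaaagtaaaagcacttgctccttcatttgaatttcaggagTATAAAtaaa
Hist1h4n: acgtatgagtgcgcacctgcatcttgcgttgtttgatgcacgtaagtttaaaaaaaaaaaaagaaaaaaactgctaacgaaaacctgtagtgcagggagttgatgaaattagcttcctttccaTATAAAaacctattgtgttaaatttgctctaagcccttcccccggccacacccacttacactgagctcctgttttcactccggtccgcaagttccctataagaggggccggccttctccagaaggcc
A match describes the letters only.

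Histone mRNA was readily counted in all 4 samples. Of the 68 genes, 55 (80.9%) reached 10 counts in at least 2 samples, against 69.7% of all symbols, and 54 passed the expression filter of the fit, among 16232 genes tested. The 14 untested genes were 9 of H2A, 3 of H2B, Hist1h1t and Hist1h4m. In all, 7 genes had 0 counts in every sample: Hist1h2aa, Hist1h2ao, Hist1h2ap, Hist1h2ba, Hist1h2bq, Hist1h2br and Hist2h2aa1. A count of 0 allows a level of up to 3 counts, which was 0.213 and 0.0855 CPM in control samples 1 and 2 and 0.110 and 0.145 CPM in Ash1L shRNA samples 1 and 2.

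Most silent members were near-identical copies. In Hist2h2aa2, which had 5 counts in all samples together, none of the 100-base stretches was unique among annotated genes, and in Hist2h2aa1 4.11% were. The corresponding shares were 7.35% in Hist1h2ao, 7.83% in Hist1h2ap, 5.16% in Hist1h2bq and 13.6% in Hist1h2br. How reads with several possible origins were handled is not given in the sources used here, so for such copies a count of 0 does not separate absent mRNA from reads left uncounted. By contrast, Hist1h2aa, Hist1h2ba and Hist1h1t, which encode testis-specific histones, had 100%, 72.6% and 100% unique stretches. Hist1h2aa and Hist1h2ba had 0 counts, and Hist1h1t had 19 counts in all. The median share of unique stretches was 70.4% among the 54 tested genes.

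**Figure D1:**
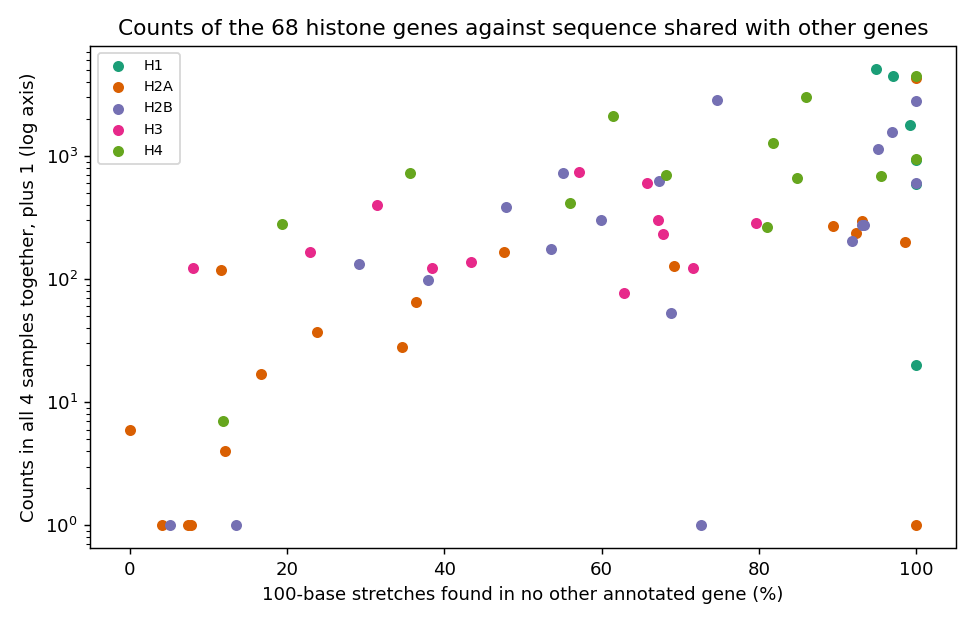
Counts of the 68 histone genes summed over the 4 samples, plus 1, on a log axis, against the percentage of each gene's 100-base stretches found in no other annotated gene, coloured by family. Genes at the bottom have 0 counts, and 5 of these 7 lie under 20% on the horizontal axis.

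Summed over all 68 genes, the groups did not separate. The sum was 394 CPM in control sample 1 and 585 CPM in control sample 2, against 540 CPM in Ash1L shRNA sample 1 and 431 CPM in Ash1L shRNA sample 2. Both Ash1L shRNA samples thus lay between the control samples. The log2 ratio of the group means was -0.01, and the SD of the log2 sums within groups was 0.33. No p is given, because 2 against 2 samples cannot go below a two-sided exact permutation p of 0.333. In these punches fewer cells of a type and less RNA per cell cannot be told apart.

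By family, H4 genes summed to 103 and 207 CPM in the control samples and to 155 and 124 CPM in the Ash1L shRNA samples. H2B genes summed to 97.7 and 135 CPM in control and 138 and 111 CPM with Ash1L shRNA. H1 genes summed to 124 and 139 CPM in control and 147 and 107 CPM with Ash1L shRNA. In none of these families did the groups separate. H2A genes gave 49.1 and 62.0 CPM against 67.8 and 54.4 CPM, and H3 genes gave 20.6 and 40.5 CPM against 32.6 and 33.9 CPM, again with overlap. Control sample 1 had the lowest sum in H2A, H2B, H3 and H4, and Ash1L shRNA sample 2 had the lowest in H1.

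**Figure D2:**
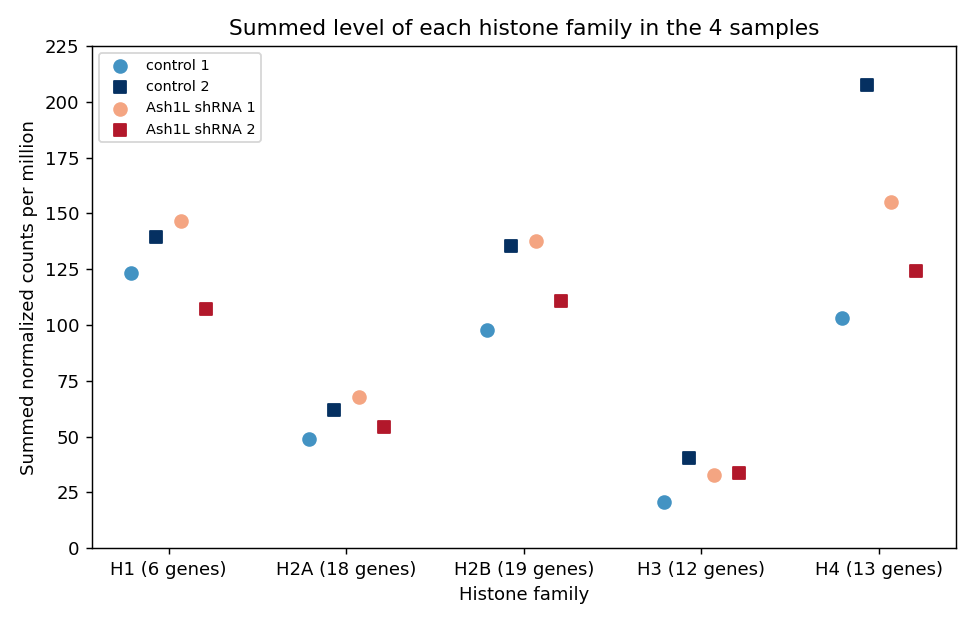
Summed normalized CPM of each histone family in the 4 samples, with control in blue and Ash1L shRNA in red. The groups overlap in every family, and the H4 sum of control sample 2 (207 CPM) lies above the other three samples.

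In the comparison of Ash1L shRNA with control, 2 of the 54 tested genes rose and 1 fell at the study's threshold (unadjusted p under 0.05 and at least 1.2-fold, edgeR quasi-likelihood test). Over all tested genes 8.61% were called UP and 8.28% DOWN, so that the called share of histone genes was not above the background. No member had an adjusted p under 0.05 in this fit, where 3 members had an unadjusted p under 0.05 and 1 gene of all 16232 (0.00616%) had an adjusted p under 0.05. The median log2 fold change of the members was -0.10, beside -0.003 over all tested genes, and 36 members were below 0 and 18 above. The median was -0.01 in H1, -0.47 in H2A, -0.10 in H2B, -0.02 in H3 and -0.21 in H4. The H2A median rests on 9 tested genes, and none of these was called. By cluster it was -0.08 over 42 Hist1 genes and -0.44 over 8 Hist2 genes.

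Hist1h2bc, an H2B gene, rose most clearly. It had 23.2 and 22.7 CPM in the control samples and 35.5 and 36.8 CPM in the Ash1L shRNA samples. The samples within each group were close to each other, and the groups were well apart. The log2 fold change was 0.66 ± 0.12 (SE), with an unadjusted p of 0.0016 and an adjusted p of 0.241 (edgeR), and the adjusted p was 0.0296 with DESeq2. Its annotated exons (chr13:23684199-23692908, plus strand, 1156 exonic bases) form 2 separate blocks. Of the members called by edgeR, it alone had no match to the stem-loop. Hist1h2be, whose exons also form 2 blocks, had one. Only annotated transcripts were searched, so a stem-loop in sequence outside the Hist1h2bc exons would be missed. Hist2h2bb, called by DESeq2 alone, had no annotated sequence after the stop codon to search. Of its 100-base stretches 74.7% were unique, and the rest were shared mainly with Hist1h2bg. Hist1h2bg itself had 5.60 and 8.87 CPM in control and 7.19 and 6.80 CPM with Ash1L shRNA, which overlapped. Hist1h2ac, the H2A gene that starts 251 bases away from Hist1h2bc on the other strand, had 1.77 and 2.05 CPM in control and 3.51 and 2.03 CPM with Ash1L shRNA. Its log2 fold change of 0.53 ± 0.40 did not pass the test (unadjusted p = 0.228, edgeR).

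Hist1h2be, also an H2B gene, had 10.98 and 12.3 CPM in the control samples and 23.8 and 15.6 CPM in the Ash1L shRNA samples. The groups did not overlap, but the Ash1L shRNA samples differed from each other by a ratio of 0.656 (sample 2 over 1, 95% exact binomial interval 0.572 to 0.750, counting error only). It rose by a log2 fold change of 0.76 ± 0.23, with an unadjusted p of 0.0164 and an adjusted p of 0.260 (edgeR). The call was lost without either control sample (unadjusted p = 0.0857 without sample 1 and 0.0528 without sample 2, edgeR) or without Ash1L shRNA sample 1 (0.0655). Its annotated exons (chr13:23583670-23621124, minus strand) overlap those of Hist1h1e on the same strand, where reads of the 2 genes cannot be told apart. Hist1h1e had 49.0 and 48.5 CPM in control and 48.3 and 35.9 CPM with Ash1L shRNA, and was not called.

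Hist1h4n, an H4 gene (chr13:21831767-21832196, minus strand), had 3.75 and 3.56 CPM in the control samples and 2.15 and 2.07 CPM in the Ash1L shRNA samples. The groups did not overlap, and both pairs were close. It fell by 0.79 ± 0.30 on the log2 scale, with an unadjusted p of 0.0380 and an adjusted p of 0.278 (edgeR). DESeq2 did not call it (unadjusted p = 0.0739), and the call was lost when any single sample was left out, with unadjusted p from 0.0593 to 0.141. The counts were low, 53 and 125 against 59 and 43 reads, and 19.3% of its 100-base stretches were unique. The most similar gene, Hist1h4m, had 6 counts in all samples together.

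Hist2h2bb, an H2B gene of the Hist2 cluster, was called DOWN by DESeq2 and not by edgeR. It had 27.0 and 38.9 CPM in control and 25.9 and 16.5 CPM with Ash1L shRNA. Ash1L shRNA sample 1 was just below control sample 1, and sample 2 was the lowest. The log2 fold change was -0.64 ± 0.27 with an unadjusted p of 0.0549 in edgeR, and -0.64 ± 0.29 with an unadjusted p of 0.0253 in DESeq2. All its 100-base stretches were unique. In DESeq2, where 6.16% of genes were called UP and 6.35% DOWN, the calls among members were Hist1h2bc and Hist1h2be UP and Hist2h2bb DOWN.

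**Figure D3:**
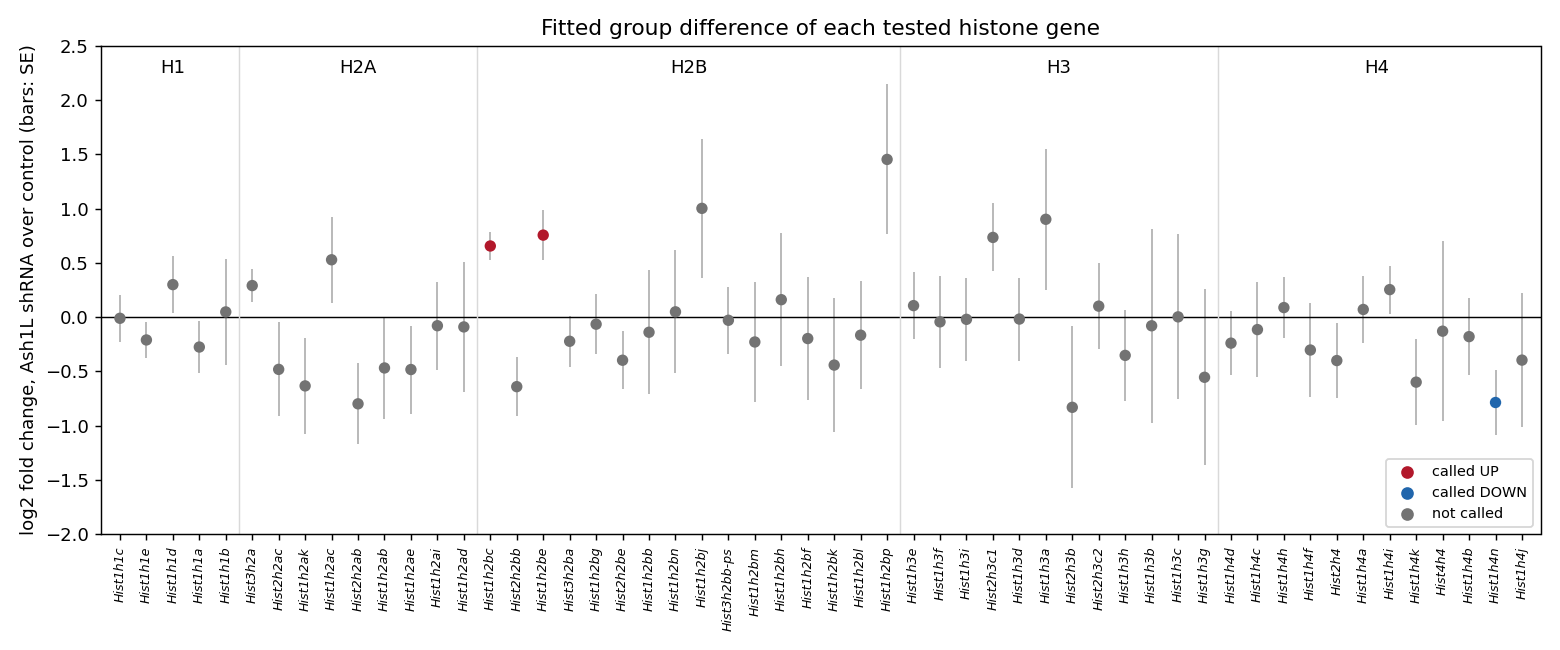
Log2 fold change of Ash1L shRNA over control for the 54 tested histone genes, with SE bars, ordered by family and by mean CPM within a family. Hist1h2bc and Hist1h2be are called UP and Hist1h4n DOWN, and the bars of most other genes cross 0.

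The linker histone genes with the highest mean CPM were Hist1h1c, Hist1h1e and Hist1h1d. Hist1h1c had 51.8 CPM in each control sample, and 62.8 and 40.0 CPM in Ash1L shRNA samples 1 and 2. The Ash1L shRNA samples enclosed the controls, and the log2 fold change was -0.01 ± 0.21 (unadjusted p = 0.964, edgeR). Hist1h1d had 11.8 and 19.2 CPM in control and 21.7 and 16.9 CPM with Ash1L shRNA, which overlapped. Scaled to exonic length, the mean level over the 4 samples was 33.1 CPM per kilobase for Hist1h1c, 23.5 for Hist1h1e and 2.34 for Hist1h1d.

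Among H2A genes, Hist3h2a had 35.9 and 41.8 CPM in control and 52.5 and 42.8 CPM with Ash1L shRNA. Both Ash1L shRNA samples were above both controls, by a narrow gap between 41.8 and 42.8 CPM. Its log2 fold change of 0.29 ± 0.15 did not pass the test (unadjusted p = 0.105, edgeR), and its annotated exons overlap those of Trim17. Hist2h2ac had 2.55 and 3.96 CPM against 3.10 and 1.59 CPM, and Hist1h2ak 2.13 and 3.96 CPM against 2.48 and 1.496 CPM. In both, Ash1L shRNA sample 2 was the lowest and control sample 2 the highest.

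Among H3 genes, Hist1h3e had 4.89 and 8.81 CPM in control and 7.38 and 7.62 CPM with Ash1L shRNA. Hist1h3f had 3.26 and 8.18 CPM in control and 5.51 and 5.89 CPM with Ash1L shRNA. In both genes the Ash1L shRNA samples lay between the controls. Hist1h3i had 3.05 and 4.90 CPM in control and 2.99 and 5.02 CPM with Ash1L shRNA, a similar spread in both groups. Other H3 genes ranged in log2 fold change from -0.83 in Hist2h3b to 0.90 in Hist1h3a, neither of which was called.

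Among H4 genes, Hist1h4d had 32.5 and 59.6 CPM in control and 43.9 and 34.6 CPM with Ash1L shRNA. Hist1h4c had 16.1 and 41.8 CPM in control and 30.5 and 23.6 CPM with Ash1L shRNA. Hist1h4h had 13.9 and 25.6 CPM in control and 22.4 and 20.02 CPM with Ash1L shRNA. In all 3 genes the controls enclosed both Ash1L shRNA samples, and the log2 fold changes of -0.24 ± 0.29, -0.11 ± 0.44 and 0.09 ± 0.28 did not pass the test. The mean level per kilobase was 37.5 CPM for Hist1h4d, 34.1 for Hist1h4c and 43.5 for Hist1h4h. The highest log2 fold change of any member was 1.45 ± 0.69 in Hist1h2bp, which was counted 1 and 14 times in the control samples and 20 and 17 times with Ash1L shRNA, and did not pass the test (unadjusted p = 0.0774, edgeR).

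**Figure D4:**
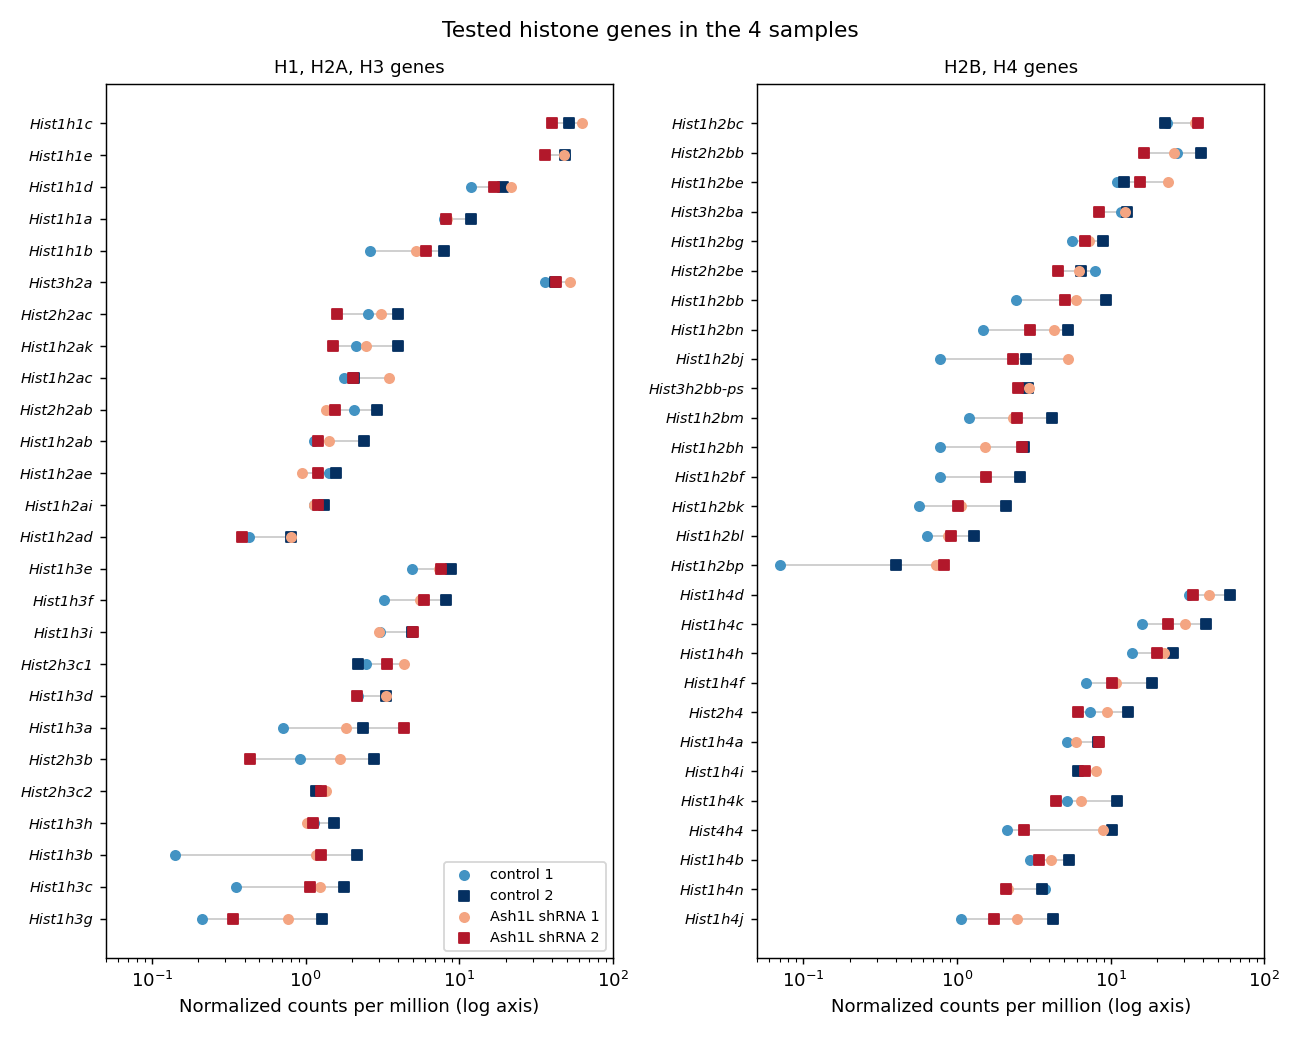
Normalized CPM of the 54 tested histone genes in the 4 samples on a log axis, by family and mean level, with the range of each gene as a grey line. Hist1h2bc shows the samples of each group together, whereas many genes, such as Hist1h3b and Hist1h2bb, span a wide range that is set by the control samples.

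The largest differences were between the control samples. Of the 54 tested genes, 47 were higher in control sample 2 than in control sample 1, with a median log2 ratio of 0.85, beside 0.00 over all tested genes. In 22 genes the ratio exceeded 2-fold, against 3.32% of all tested genes. In 35 the 95% exact interval of the ratio lay above 1, while in none did it lie below 1. The share of all tested genes with such an interval is not given here. Hist1h3b had 2 counts (0.142 CPM) in control sample 1 and 76 counts (2.17 CPM) in control sample 2, a ratio of 15.3 (interval 4.09 to 129). Hist4h4 had 2.13 and 10.2 CPM, a ratio of 4.81 (interval 3.31 to 7.24), and Hist1h2bb had 2.41 and 9.29 CPM, a ratio of 3.86 (interval 2.71 to 5.67). These intervals cover counting error only.

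The Ash1L shRNA samples lay between the 2 controls in 23 of the 54 genes, against 8.2% of all tested genes. Hist1h2bb had 5.92 and 5.07 CPM in these samples, and Hist1h3b had 1.17 and 1.25 CPM. The gap between the controls, on the log2 scale, was larger than the fitted group difference in 40 of the 54 members and in 39.7% of all tested genes. The normalized counts of the groups did not overlap in 13 members (24.1%), against 53.2% of all tested genes. In 7 members both Ash1L shRNA samples were lower, against 26.8% of all tested genes, and in 6 both were higher, against 26.5%. Between Ash1L shRNA samples 1 and 2 the median log2 ratio (sample 2 over 1) was -0.24, with 17 of 54 members higher in sample 2, beside -0.02 over all tested genes. Hist4h4 was an extreme case here too, with 8.87 and 2.75 CPM. Control sample 1 was also the library with the fewest counts, and the part of depth in this gap was not tested. Other tested protein-coding genes with short transcripts (under 1 kilobase of exon) had a median log2 ratio between the controls of 0.01, and tested genes of a mean of 0.5 to 10 CPM had 0.06. Control sample 2 was more than 2-fold above control sample 1 in 22 of these 250 short genes. The same held for 399 of the 5298 genes of 0.5 to 10 CPM.

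The gap varied with the annotated transcript end. In 16 tested members the annotated transcript ended within 60 bases after the stem-loop. Their median log2 ratio of control 2 over control 1 was 1.73, and 15 were higher in control sample 2. In the 23 whose annotated transcript runs further it was 0.65, with 19 higher in control sample 2. In the 10 with no annotated sequence past 20 bases after the stop codon it was 0.79, with all 10 higher in control sample 2, and in the 4 tested members without a match it was 0.27. Each of the larger classes was mixed. Hist1h4n, which ends near the stem-loop, had -0.08, and among the longer transcripts Hist1h1c had 0.00 and Hist1h1e -0.02, but Hist1h3c 2.32 and Hist4h4 2.27. These classes also differ in family and in annotated length, and the difference between them was not tested.

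Leaving out a control sample moved the members as a whole. Without control sample 1, 5 of 56 tested members were called DOWN and 1 UP, against 4.14% and 5.07% of all tested genes in that fit, and the members' median log2 fold change was -0.51. Without control sample 2, 0 of 55 were called DOWN and 10 UP, against 1.86% and 2.57% of all genes, and the median was 0.45. Without Ash1L shRNA sample 1 the calls were 6 of 55 DOWN and 2 UP, against 16.5% and 14.4% of all genes. Without Ash1L shRNA sample 2 they were 0 of 56 DOWN and 6 UP, against 5.05% and 6.25% of all genes. In these fits a lone sample is assumed to vary like the other group. Hist1h2bc was called UP in each of the 4 fits. Hist1h4c passed the threshold in opposite directions, DOWN at a log2 fold change of -0.62 without control sample 1 (unadjusted p = 0.0373, edgeR) and UP at 0.75 without control sample 2 (unadjusted p = 0.0285, edgeR).

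**Figure D5:**
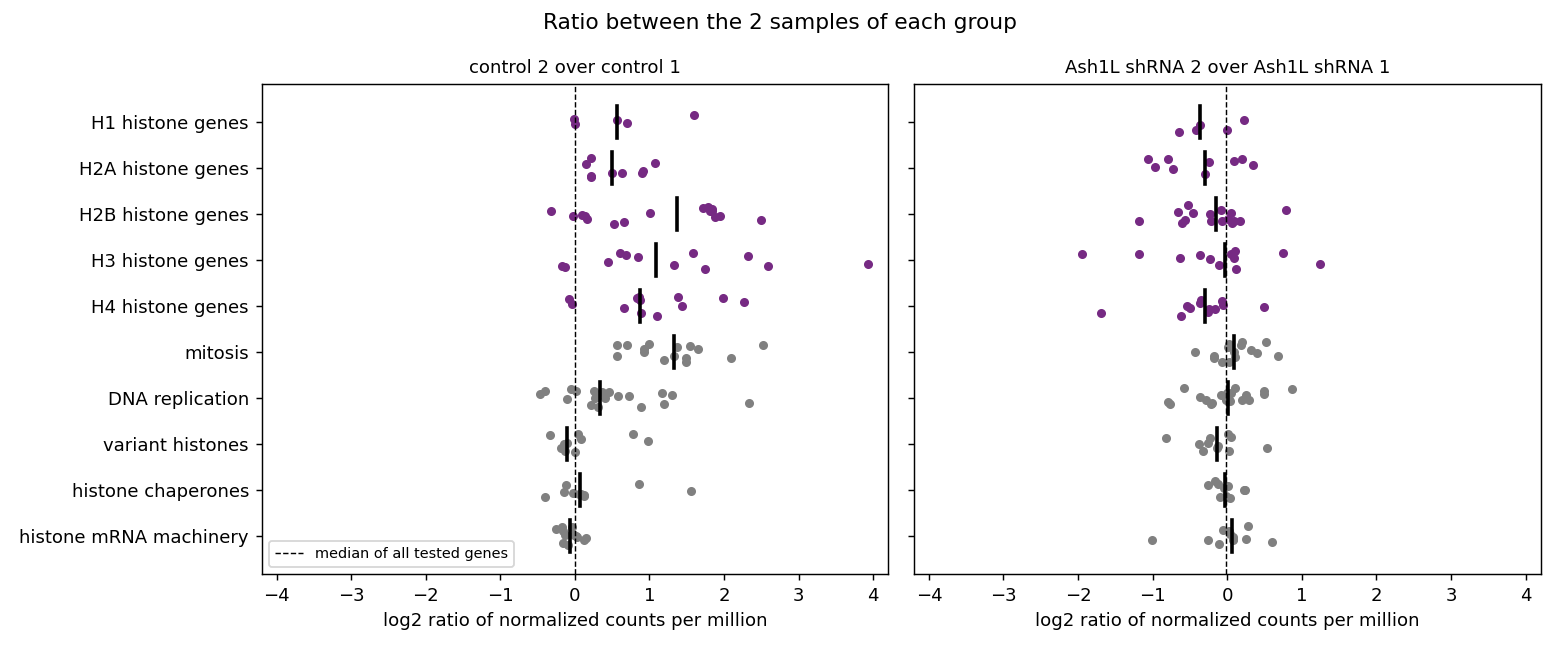
Log2 ratio of normalized CPM between the 2 control samples (left) and the 2 Ash1L shRNA samples (right) for tested histone genes by family and for 5 related gene lists, with black bars at list medians and a dashed line at the median of all tested genes. Histone and mitosis genes lie mostly to the right in control sample 2 over 1. The median of the variant histones lies near 0, with Cenpa (0.98) and H1fx (0.78) to the right and H2afj (-0.33) to the left.

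Genes of cell division followed the same order in the controls. All 15 mitosis genes were higher in control sample 2, with a median log2 ratio of 1.33. Mki67, the most abundant of them and a marker of cycling cells, had 8.15 and 23.8 CPM in the control samples and 22.1 and 23.6 CPM in the Ash1L shRNA samples. None of the 15 was called, against 8.28% DOWN and 8.61% UP of all tested genes. The median log2 fold change of the mitosis genes between groups was 0.41. Of 20 DNA replication genes 16 were higher in control sample 2 (median log2 ratio 0.34). Their median log2 fold change between groups was 0.28, with 18 above 0 and 2 below. Only 1 of the 20 was called UP, against 8.61% of all tested genes. That gene, Ccne1, which encodes cyclin E1, had 21.04 and 15.3 CPM in control and 25.8 and 24.4 CPM with Ash1L shRNA, a log2 fold change of 0.48 ± 0.19 (unadjusted p = 0.0408, adjusted p = 0.282, edgeR). Pcna, the replication clamp and the most abundant gene of the list, had 32.2 and 40.1 CPM against 41.7 and 44.6 CPM and was not called. The part of the number of dividing cells in the histone values was not tested.

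Replication-independent histone variants, which supply nucleosomes outside S phase, showed no called change. Of 11 variant genes 0 were called, against 8.28% DOWN and 8.61% UP of all tested genes. So few genes could hold 0 calls at that share. Their median log2 fold change was 0.03. H3f3b, which encodes H3.3 and was the most abundant, had 163 CPM in each control sample and 162 and 167 CPM in the Ash1L shRNA samples. The median log2 ratio between the controls was -0.10 over the 11 genes, with a range from -0.33 in H2afj to 0.98 in Cenpa.

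Genes for factors that make and carry histones were called in a few cases, beside 8.61% UP and 8.28% DOWN over all tested genes. Of 12 genes for histone mRNA transcription, processing and decay, 2 were called UP and 0 DOWN, and the median change on the log2 scale was 0.04. Slbp, whose product binds the stem-loop, had 23.6 and 20.95 CPM in control and 27.1 and 32.1 CPM with Ash1L shRNA. It rose by a log2 fold change of 0.41 ± 0.15 (unadjusted p = 0.0327, adjusted p = 0.269, edgeR). Eri1, an exonuclease that acts on the stem-loop in histone mRNA decay, had 20.8 and 18.7 CPM against 25.6 and 31.1 CPM, a log2 fold change of 0.52 ± 0.16 (unadjusted p = 0.0145, adjusted p = 0.260, edgeR). DESeq2 called Eri1 and not Slbp. Npat, the S-phase activator of these clusters, had 52.2 and 52.7 CPM against 51.7 and 52.6 CPM, with overlap of the groups, and Sympk, the most abundant gene of the list, was not called at 132 and 124 CPM against 115 and 118 CPM. Of 10 histone chaperones, 1 was called UP and 0 DOWN, a share near that of all tested genes, with a median log2 fold change of -0.04. Nasp, a carrier of H1 and of H3-H4, had 27.3 and 20.7 CPM in control and 34.1 and 34.3 CPM with Ash1L shRNA, a log2 fold change of 0.52 ± 0.17 (unadjusted p = 0.0198, adjusted p = 0.260, edgeR). The most abundant chaperone gene, Atrx, was not called, with 400 and 422 CPM against 386 and 361 CPM.

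Cell type markers also moved between the groups, and their part in the histone values was not tested. Over all tested genes 8.28% were called DOWN and 8.61% UP. Astrocyte markers summed to 5364 and 5680 CPM in control and to 4330 and 3211 CPM with Ash1L shRNA, and 5 of 7 were called DOWN. Neuron markers summed to 7610 and 7917 against 6849 and 5675 CPM, with 2 of 8 DOWN. Oligodendrocyte precursor markers summed to 251 and 245 against 319 and 243 CPM, with 2 of 6, Sox10 and Pdgfra, called UP by edgeR. DESeq2 called 0 of these 6. Microglia markers summed to 630 and 656 against 765 and 329 CPM, with 0 of 7 called, and oligodendrocyte markers to 2503 and 2818 against 2696 and 2371 CPM, with 0 of 6 called. Of 6 endothelial markers 1, Kdr, was called UP, and the sums were 204 and 186 against 218 and 215 CPM. Of 5 measured T cell markers 4 were called DOWN, with sums of 9.28 and 15.6 against 3.36 and 2.65 CPM. None of these markers was at 0 in all samples.

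In the divergent H2A and H2B pairs, both genes were tested in 7 of 13 cases. The fitted changes had the same sign in 5 of the 7. The tested pairs include the pseudogene Hist3h2bb-ps with Hist3h2a, whose log2 fold changes of -0.03 and 0.29 had opposite signs. Among all tested members 36 were below 0 and 18 above, so that many members share a sign without being paired. In Hist1h2ae and Hist1h2bg the fitted changes were -0.48 and -0.06, and in Hist2h2ac and Hist2h2be -0.48 and -0.40, none of which passed the test. Hist2h2be had 7.93 and 6.39 CPM in control and 6.24 and 4.54 CPM with Ash1L shRNA. Mean levels within a pair ranged from similar, as in Hist1h2ai (1.196 CPM) and Hist1h2bl (0.928 CPM), to far apart, as in Hist1h2ac (2.34 CPM) and Hist1h2bc (29.6 CPM). Per kilobase of annotated exon the latter were at 0.942 and 25.6 CPM.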

How the data were processed

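RNA of PFC punches was sequenced from 2 control and 2 Ash1L shRNA samples as paired-end, strand-marking, rRNA-depleted total RNA libraries. The authors aligned reads to mm10 with RNA STAR (Galaxy 2.7.5b) and deposited raw counts per gene symbol from featureCounts (Galaxy 1.6.4), per the file headers and the study's methods; the labels describe Cutadapt and TopHat2 instead, and the strand and multi-mapping settings are not given in the sources used here.

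Counts were fitted with edgeR 4.0.16 in R 4.3.3 (filterByExpr, TMM, robust quasi-likelihood test, no covariates, Benjamini-Hochberg over all tested genes). CPM values use TMM-scaled library sizes. DESeq2 1.42.0, the study's tool, was an alternative, as were a likelihood ratio test, other scalings, filters, fold limits, GC and length offsets, blocks and leaving out samples. A gene was called at an unadjusted p under 0.05 and at least 1.2-fold, the study's rule. The fitting code was tested on simulated data. Members and gene lists were chosen with earlier results of these data known, so no list was tested. Lists cover variant histones, histone mRNA factors, chaperones, replication, mitosis and cell type markers. Named members are those called, those called by DESeq2 alone, and the 3 of highest mean CPM per family. Other members are named where they end a range, lack counts, pair with a called gene or show the gap between controls, chosen after their values were seen. From each other list, called genes with the highest counts and the most abundant gene are named, plus Npat for its role, and cell type lists are given as sums. Group labels come from the sample titles. Intervals are exact binomial, at 95%, and cover counting error only. All 68 symbols matched GENCODE vM21, and no genome or protein sequences were used here.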

Additional observations from a re-analysis of the deposited data

How the results depend on the processing

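With 2 samples per group, and a gap between the control samples larger than the group difference in most members, small changes of these genes could not be resolved. Over 20 alternatives Hist1h2bc was called UP in 20 (log2 fold change 0.58 to 0.70), Hist1h2be in 17 and Hist1h4n DOWN in 9, while 15 called Ash1l. The likelihood ratio test called 2 of 54 members DOWN and 4 UP, against 7.81% and 8.72% of all tested genes. The length offset called 2 of 54 DOWN, against 7.67% of all tested genes. The GC content offset called 0 of 54 DOWN, against 7.54% of all tested genes. The median over members ranged from -0.22 to 0.03 without leaving out samples, and the log2 ratio of summed CPM from -0.01 to 0.03. The value of -0.22 was the median of a subset, the 24 tested members with at least 80% unique stretches.

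The sample titles give same-numbered samples only a common number. Their deviations correlated at -0.105 over all genes, which with 2 samples per group cannot decide whether they were handled together. With the replicate block 0 members were called DOWN and 3 UP, 0 DOWN also with the GC content offset, and calls over all genes went from 1344 to 1020 DOWN and from 1397 to 1052 UP. A crossed pairing, added after seeing the data, called 4 of 54 members UP and 1 DOWN, against 9.49% and 10.7% of all tested genes. Restricting to the 24 tested members with at least 80% unique stretches, also added later, left 0 DOWN and 1 UP. All tested genes had 8.28% DOWN and 8.61% UP in that fit. The median log2 fold change of this subset was -0.22, beside -0.10 over all tested members. Ash1l was no longer called with the length offset (-0.55) or the replicate block with length offset (-0.59).

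Leaving out 1 sample gave 0 to 6 members DOWN, 1 to 10 UP, medians of -0.51 to 0.45, log2 ratios of summed CPM of -0.27 to 0.30, and Ash1l values of -0.97 to -0.31. Over all genes such fits called 306 to 2718 DOWN and 423 to 2368 UP. Genes with an adjusted p under 0.05 numbered 1 in edgeR, 420 in DESeq2, 479 in the likelihood ratio test, 34 without the filter on low counts, 0 with the replicate block, and 0 to 2502 without 1 sample. Signs turned in genes that the reported fit did not call and whose values there lay near 0 or within their error. Hist1h1c was 0.0066 with upper-quartile scaling, 0.025 with library-size scaling, 0.049 with the GC content offset and 0.013 with replicate block and GC content offset. Hist1h3f was 0.00079 with library-size scaling, 0.11, 0.092 and 0.072 with the replicate block alone, with GC content and with length, and 0.074 with the crossed block. Hist1h3i was 0.028 with library-size scaling, 0.11 with the GC content offset, and 0.0060 and 0.14 with the replicate block alone and with GC content. Hist1h4c was 0.028, 0.018 and 0.023 with the replicate block, with block and GC content, and with the crossed block. Leaving out 1 sample moved Hist1h1c from -0.38 to 0.28, Hist1h3e from -0.22 to 0.61, Hist1h3f from -0.51 to 0.80, Hist1h3i from -0.44 to 0.38, Hist1h4c from -0.62 (called DOWN) to 0.75 (called UP), Hist1h4d from -0.59 to 0.27 and Hist1h4h from -0.26 to 0.61. The causes were not tested.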
